A study of Mus musculus with 8 samples.

Results

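The genes described here are microtubule-associated proteins, stathmins and 1 synuclein that are best known from neurons. They were measured in cultured mouse muscle stem cells given Cre, to delete part of the chromatin remodeller gene Chd4, or GFP. The list names 9 genes: Map1a, Map1b, Map2, Mapt, Map6, Stmn1, Stmn2, Stmn3 and Sncg. They were found by symbol, and 8 of the 9 had a row among the 20976 genes of the table. Stmn3 was not analysed here. All 8 passed the filter on low values, which kept 12910 genes that reached 1 CPM (counts per M of the library total, here 27.9 to 28.9 scaled reads) in at least 4 libraries. Sncg passed it only through the Cre libraries, so it had to differ between the groups. The list was drawn up because Map1a and Sncg were higher in Cre than in GFP, so the difference between these groups is given for its members as a description, without a test.

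The cells were satellite cells, the stem cells of skeletal muscle, sorted by flow cytometry from Chd4LoxP/LoxP mice and expanded briefly in medium with 20% FCS and 5 ng/ml bFGF. Both groups carried the loxP-flanked Chd4 gene and both received an adenovirus. It brought Cre recombinase, which deletes Chd4 exons 12 to 21, in cre_1 to cre_4, and GFP in gfp_1 to gfp_4. Each condition was replicated with 4 mice, and the strain, age and sex of the mice were not given in the sources used here. No group combined Cre with an intact Chd4 gene, so effects of Cre itself cannot be told apart from those of the deletion. Values are reads per gene, scaled between libraries and rounded by the authors, called scaled reads below. The scaled totals lay between 27897860 and 28876348, from an estimated 23.3 to 38.0 M original reads. Chd4 stood at 3686 to 5480 scaled reads in Cre and at 15904 to 20121 in GFP (log2 change -1.88 ± 0.14, SE; limma, adjusted p = 0.00328), so the labels and the target gene go together. Whether equal numbers mark 1 mouse was not given in the sources used here. Over all genes, the deviations of a library from its group mean correlated at 0.82 to 0.908 between equal numbers and at -0.597 to 0.477 between unequal ones, so equal numbers were treated as pairs wherever a paired model is named.

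Microtubules are polymers of tubulin that grow and shrink at their ends. MAP1A, MAP1B, MAP2, tau (the product of Mapt) and MAP6 bind along the polymer and stabilise it, and in neurons they help to shape axons and dendrites. Stathmins bind free tubulin dimers and favour shrinkage. Stathmin 1 is widespread in dividing cells, while stathmin 2 is anchored to membranes and is known from growing axons. Synucleins are small proteins that associate with membranes, and gamma-synuclein, the product of Sncg, is known from peripheral neurons and from fat cells. Muscle cells remodel their own microtubules when myoblasts elongate and fuse, with MAP4 as a known muscle MAP.

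Promoter sequences show how unlike the start sites of the genes are. RefSeq (GRCm38.p6) gave a window from 250 bases before to 50 bases after the start for 5 of the 9 genes, namely Map1a, Map1b, Map2, Stmn3 and Sncg. The windows of Map1a and Sncg are printed because these genes chose the list, and that of Map1b because it is the paralogue of Map1a whose level was alike in both groups. Capitals mark CG dinucleotides, the sites of DNA methylation in mammals.
Map1a, chr2:121289352-121289651, plus strand: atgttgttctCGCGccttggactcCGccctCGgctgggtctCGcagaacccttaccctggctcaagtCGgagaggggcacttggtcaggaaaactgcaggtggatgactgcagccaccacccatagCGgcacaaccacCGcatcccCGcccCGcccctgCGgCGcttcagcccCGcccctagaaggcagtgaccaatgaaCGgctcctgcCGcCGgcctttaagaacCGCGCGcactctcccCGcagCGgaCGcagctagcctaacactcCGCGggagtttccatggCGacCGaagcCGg
Map1b, chr13:99516553-99516852, minus strand: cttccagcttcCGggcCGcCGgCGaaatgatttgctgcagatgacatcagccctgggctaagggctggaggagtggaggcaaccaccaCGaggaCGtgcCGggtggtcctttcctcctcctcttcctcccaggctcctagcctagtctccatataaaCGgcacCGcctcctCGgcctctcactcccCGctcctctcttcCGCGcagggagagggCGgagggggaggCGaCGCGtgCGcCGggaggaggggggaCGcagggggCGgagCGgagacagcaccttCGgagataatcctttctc
Sncg, chr14:34374620-34374919, minus strand: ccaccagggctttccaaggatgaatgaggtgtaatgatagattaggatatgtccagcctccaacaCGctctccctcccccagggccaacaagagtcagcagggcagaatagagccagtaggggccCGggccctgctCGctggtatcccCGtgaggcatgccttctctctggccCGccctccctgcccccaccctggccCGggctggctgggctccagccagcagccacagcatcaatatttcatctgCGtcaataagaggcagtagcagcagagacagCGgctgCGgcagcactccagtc
Map1a had 27 CG dinucleotides and Map1b 23, which placed them above 84.5 and 78.5% of the 32817 promoter windows of the table. Sncg had 9, above 54.2% of them and close to the median of 7. Map2 had 37 (above 94.4%) and Stmn3 had 6. The G and C share was 65.7% in both Map1a and Map1b, 61.3% in Sncg and 77.7% in Map2, against a median of 52.7%. Neither CAGCTG, an E-box that reads the same on both strands, nor TTCAGCACC, the left part of the RE1 element bound by the neuronal gene repressor REST, occurred on either strand of these 5 windows. Of all windows, 16.3% hold the first and 0.372% the second. The 2 genes that chose the list therefore differed in CG content, and the Map1 paralogues shared a CG-rich start.

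Per kb of exon, Map1b was the most abundant member in both groups. In GFP it stood at 687 ± 122 scaled reads per kb of exon (SD, n = 4 here and for each level per kb), above all libraries of the next gene, Stmn1, at 139 ± 32.7. Map1a followed at 98.2 ± 46.3, Stmn2 at 79.2 ± 86.3 and Map6 at 53.7 ± 9.98, and in this order neighbours from Stmn1 to Map6 overlapped. Sncg came after a gap at 23.5 ± 10.6, then Mapt at 11.1 ± 6.17 and Map2 at 3.68 ± 1.01, each overlapping the next. In Cre the order was Map1b at 707 ± 122, Map1a at 293 ± 94.8, Sncg at 284 ± 135, Stmn2 at 138 ± 119, Stmn1 at 90.3 ± 29.3, Map6 at 39.5 ± 6.92, Mapt at 12.2 ± 8.27 and Map2 at 4.45 ± 1.99. There Map1b stood clear of Map1a, Stmn1 of Map6 and Map6 of Mapt, while the other neighbours overlapped. Sncg stood between Mapt and Map6 in GFP and beside Map1a in Cre, and the classic dendrite and axon markers Map2 and Mapt stayed lowest in both groups. Exon length was the union of all annotated exons, so genes with long alternative exons, such as Map2 with 24 annotated transcripts over 16449 bp, are understated. Gene totals cannot show which isoforms of Map2, Mapt or Map6 were present, and in such bulk samples fewer cells with a transcript and less of it per cell cannot be told apart.

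**Figure D1:**
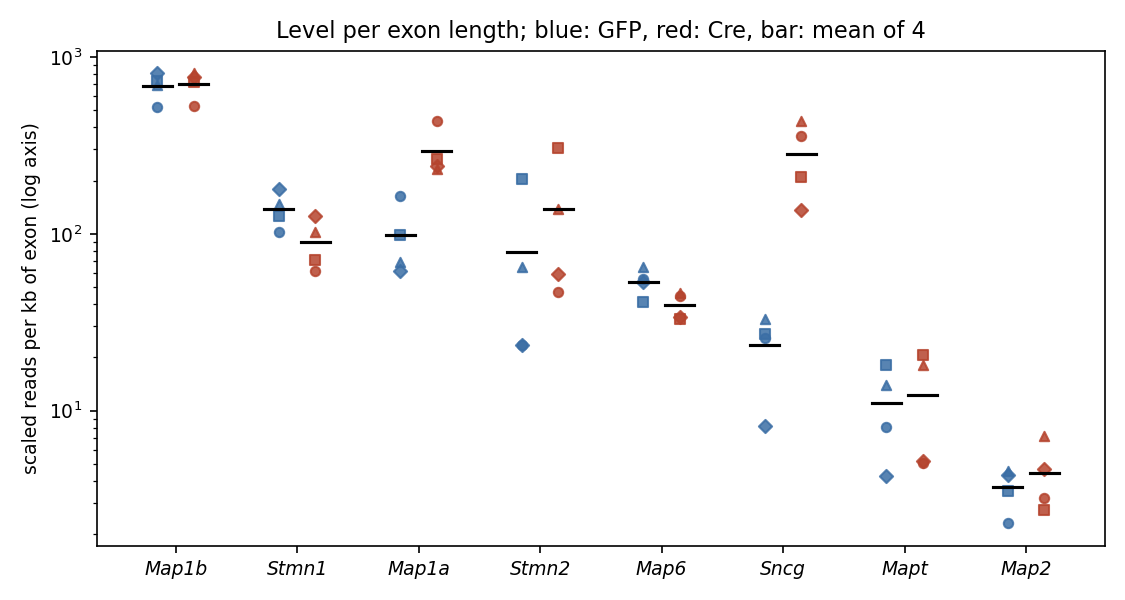
Scaled reads per kb of exon (log axis) for the 8 genes, ordered by their mean in GFP. Points are libraries (circle, square, triangle and diamond for numbers 1 to 4; blue GFP, red Cre) and bars are means of 4; Map1b is highest in both groups and Sncg shifts from 23.5 to 284.

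The large MAP1 proteins are cut into a heavy and a light chain and act as stabilisers of axonal and dendritic microtubules. Map1a (ENSMUSG00000027254, chromosome 2 at 121289600 to 121310832, plus strand, GRCm38) had 5275, 3212, 2827 and 2932 scaled reads in cre_1 to cre_4, against 1988, 1196, 847 and 747 in gfp_1 to gfp_4 (values of other genes are given in the same order). Every Cre library was above every GFP library, and number 1 was the highest in each group. The mean of the 4 Cre libraries was 3562 ± 1154 (SD) and that of the 4 GFP libraries 1195 ± 563, a 2.98-fold ratio, and the log2 change was 1.64 ± 0.33 (SE; 0.08 in the paired model). Pair by pair the log2 difference was 1.41, 1.42, 1.74 and 1.97, so the libraries with the lowest GFP level had the widest gaps. The 3′ part of Map1a overlaps Ppip5k1, which lies on the opposite strand at 121310561 to 121355396, and 1.83% of the Map1a exon sequence (as 50-base words) also occurs in Ppip5k1. Ppip5k1, an inositol pyrophosphate kinase gene, stood at 379 to 623 scaled reads over all 8 libraries. Its log2 change was 0.35 ± 0.12 (SE; limma, adjusted p = 0.222, paired 0.00158). Whether reads were counted by strand was not given in the sources used here. The part of Ppip5k1 reads in the Map1a values was not tested.

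Map1b (ENSMUSG00000052727, chromosome 13 at 99421446 to 99516540, minus strand), the paralogue that predominates in developing neurons, behaved otherwise. It was at 8418, 11454, 12783 and 12159 in Cre and at 8224, 11520, 10957 and 12827 in GFP. The groups overlapped almost wholly, and number 1 was the lowest in both, the reverse of its place for Map1a. The log2 change was 0.04 ± 0.17, with a 95% interval from -0.35 to 0.44 (paired -0.07 to 0.16), and it was higher in Cre in 2 of 4 pairs.

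MAP2 and tau are related proteins that share a repeat domain for microtubule binding and sort to dendrites and axons. Map2 (ENSMUSG00000015222, chromosome 1 at 66175313 to 66442583, plus strand) was at 53, 45, 118 and 77 in Cre and at 38, 58, 75 and 71 in GFP. Its log2 change was 0.22 ± 0.35, with a 95% interval from -0.59 to 1.02, and 3 of 4 pairs were higher in Cre. Mapt (ENSMUSG00000018411, chromosome 11 at 104231390 to 104332090, plus strand) was at 38, 155, 136 and 39 in Cre and at 61, 137, 105 and 32 in GFP, with a log2 change of 0.04 ± 0.62 and an interval from -1.39 to 1.46. For both genes the groups overlapped throughout. Mapt split by library number instead: numbers 2 and 3 held 105 to 155 scaled reads and numbers 1 and 4 held 32 to 61.

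MAP6, also called STOP, protects microtubules from cold. Map6 (ENSMUSG00000055407, chromosome 7 at 99267447 to 99337137, plus strand) was at 408, 303, 424 and 311 in Cre and at 509, 375, 597 and 486 in GFP. Each Cre library was below its GFP partner, although the groups overlapped, since GFP 2 lay under Cre 1 and Cre 3. The means were 361.5 ± 63.4 and 491.75 ± 91.4, with a log2 change of -0.44 ± 0.18 (paired SE 0.08).

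The stathmins went opposite ways. Stmn1 (ENSMUSG00000028832, chromosome 4 at 134468320 to 134473843, plus strand) was at 119, 137, 196 and 242 in Cre and at 198, 242, 282 and 346 in GFP. It was lower in Cre in 4 of 4 pairs, by log2 differences of -0.73, -0.82, -0.52 and -0.51. Its log2 change was -0.65 ± 0.26 (paired SE 0.10). Of the Stmn1 exon sequence, 18.9% (as 50-base words) also occurs in Gm11223 or Gm23634, so its level is uncertain. Stmn2 (ENSMUSG00000027500, chromosome 3 at 8509360 to 8561606, plus strand), the axonal stathmin, was at 261, 1709, 781 and 334 in Cre and at 131, 1150, 362 and 131 in GFP. The spread between mice exceeded the gap between groups: the highest GFP library was 8.78 times the lowest, and GFP 2 was above Cre 1, Cre 3 and Cre 4. Within each pair Cre was higher, by log2 differences of 0.99, 0.57, 1.11 and 1.34. The change of 1.00 therefore had an SE of 0.83 in the unpaired model and 0.11 in the paired one, and it lay between 0.49 without Cre replicate 2 and 1.66 without GFP replicate 2.

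Sncg (ENSMUSG00000023064, chromosome 14 at 34370274 to 34374789, minus strand), which encodes gamma-synuclein, had the widest gap of the 8 genes. It was at 304, 179, 369 and 117 scaled reads in Cre and at 22, 23, 28 and 7 in GFP. The lowest Cre library was above the highest GFP library, and number 4 was the lowest in each group. The means were 242 ± 115 and 20.0 ± 9.06, a 12.1-fold ratio, and the log2 change was 3.55 ± 0.50 (paired SE 0.18). On the log2(value + 1) scale the change of so low a gene depends on the added constant: it was 3.01 with 10 in place of 1. None of its 50-base words occurs in another annotated transcript, and no gene of the table overlaps it. Sncb was not analysed here.

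**Figure D2:**
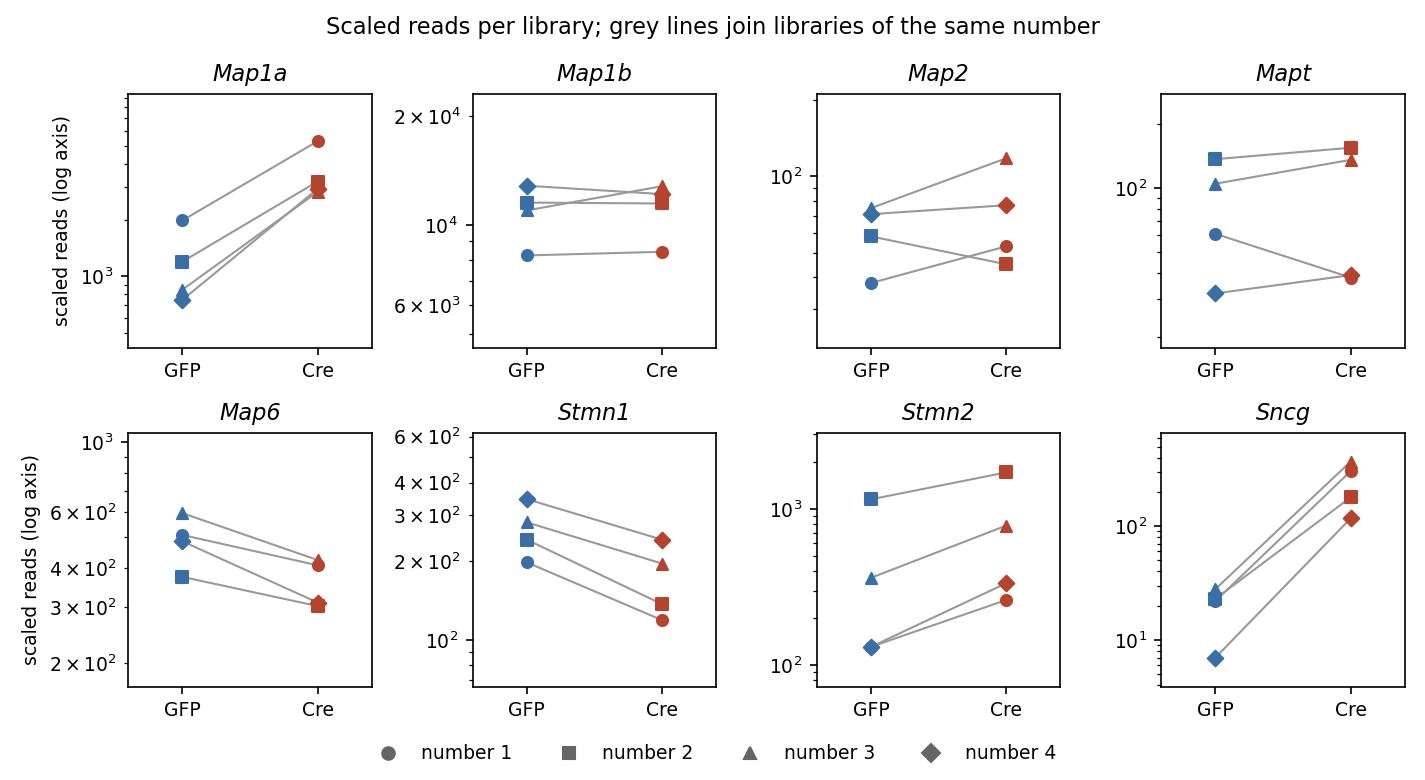
Scaled reads (log axis, a scale of its own in each panel) of the 8 genes in the 4 GFP (blue) and 4 Cre (red) libraries; grey lines join equal numbers. Map1a, Stmn2 and Sncg slope upward and Map6 and Stmn1 downward in all 4 pairs, while the groups stand clear of each other only for Map1a and Sncg.

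In all, 3 of the 8 genes (Map1a, Stmn2 and Sncg) were higher in Cre in 4 of 4 pairs, 2 (Map6 and Stmn1) were lower in 4 of 4, and 3 (Map1b, Map2 and Mapt) were mixed. Over all genes tested, 27.9% were higher and 27.6% lower in 4 of 4 pairs. The groups did not overlap for 2 members, both higher in Cre, while 4.41% of all genes were higher and 6.17% lower without overlap. Since the contrast chose the list, nothing is read from these counts. The median log2 change of the 8 members was 0.13, and that of all genes tested was -0.001. Without 1 library at a time, Mapt lay between -0.35 and 0.36, Map2 between -0.04 and 0.42 and Map1b between -0.09 and 0.17, so these 3 genes had no fixed direction.

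**Figure D3:**
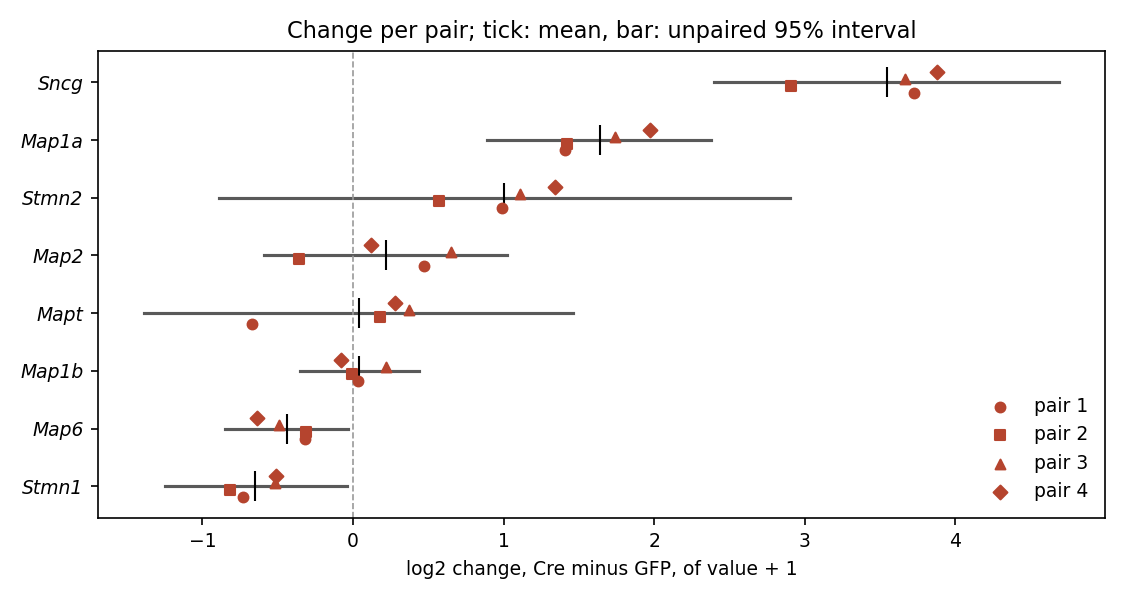
Log2 change of Cre against GFP for each gene, with 1 symbol per pair, a tick at the mean and a bar for the unpaired 95% interval. The symbols of a gene lie much closer together than its bar is wide for Stmn2, where the pairs span 0.57 to 1.34 and the bar runs from -0.89 to 2.90.

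Members also differed in how much they varied between mice of the same group. In GFP the SD of log2(value + 1) over the 4 libraries was 1.49 for Stmn2, 0.913 for Mapt, 0.84 for Sncg and 0.631 for Map1a, against a median of 0.217 over all genes tested. These lay above 98.5, 94.3, 93.3 and 88.3% of genes. In GFP, Sncg held only 7 to 28 scaled reads and Mapt 32 to 137, where counting error adds to the SD. Sncg passed the filter only through Cre, so nothing is read from its rank in GFP. The genes compared were not matched by level. Map1b and Map6 varied least of the 8, with SDs of 0.274 and 0.278, above 60.9 and 61.6% of genes. In Cre the values for Stmn2, Mapt, Sncg and Map1a were 1.23, 1.09, 0.747 and 0.418, above 98.0, 97.2, 92.4 and 78.0% of genes. The 4 libraries numbered 2 and 3 held 362 to 1709 scaled reads of Stmn2 and those numbered 1 and 4 held 131 to 334, without overlap, as for Mapt. Numbers 2 and 3 carried transcripts of the Y chromosome (7108 to 8135 summed scaled reads, against 140 to 219) and almost no Xist (2 to 12, against 40670 to 49984). Over all genes tested, 8.28% were higher in all libraries numbered 2 and 3 than in all numbered 1 and 4, and 7.01% were lower. With 2 numbers of each kind, sex and mouse cannot be told apart.

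Genes with the most similar pattern over the 8 libraries were sought by Pearson's r on log2(value + 1), as a description. For Map1a they were Rbm34 (r = 0.994), Ikbke (0.992) and Ifi35 (0.986), among 10609 genes with a mean of at least 5 CPM. Their log2 changes were 0.38, 0.63 and 0.63, smaller than that of Map1a. For Sncg they were Sec23a (r = 0.986), a coat protein gene of vesicles that leave the endoplasmic reticulum, Copb2 (0.983), a coat protein gene of the Golgi, and Lgals9 (0.979), which encodes a galectin, among 10610 genes. Their log2 changes were 0.48, 0.16 and 1.64. All points of such an r share the 8 libraries and their split into 2 groups.

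Neighbouring genes, chosen by position alone, were compared beside the members. The nearest tested gene on each side of the 8 members, leaving out genes that overlap a member, gave 16 genes. Ppip5k1, which overlaps Map1a, was left out for this reason (limma, adjusted p = 0.222, paired 0.00158). In the unpaired limma model (Benjamini-Hochberg adjusted p under 0.05), which called 1.08% of all genes, Dgat2 and Ckmt1 were called. Voom, which called 1.19% of all genes, also called 2, and 5 had an unadjusted p under 0.05 in limma, as had 16.7% of all genes. Ckmt1 is in these counts although it passed the filter only through Cre and so had to differ, and nothing is read from them. Ckmt1, a mitochondrial creatine kinase gene 46.9 kb to the right of Map1a, was at 33, 49, 48 and 79 in Cre and at 4, 6, 6 and 1 in GFP (log2 change 3.43 ± 0.49). Trp53bp1, 18.2 kb to the left of Map1a, encodes a DNA repair protein and had a change of 0.23 ± 0.08 (limma, adjusted p = 0.217, paired 0.00171). Dgat2, a triglyceride synthesis gene 84.7 kb from Map6, rose by 0.81 ± 0.11 (limma, adjusted p = 0.0198), while Map6 was lower in each pair. The call of Dgat2 was lost when any library other than Cre 1 was left out (adjusted p up to 0.0704). That of Ckmt1 was lost when any library other than GFP 4 was left out (limma, adjusted p up to 0.0934). Neither gene beside Sncg was called in either model: Glud1 had a log2 change of -0.08 ± 0.09 (limma, adjusted p = 0.711, paired 0.126) and Bmpr1a one of 0.04 ± 0.08 (adjusted p = 0.867, paired 0.503). Hey1, which encodes a transcriptional repressor downstream of Notch and lies 102 kb to the right of Stmn2, was at 172, 389, 329 and 265 in Cre and at 110, 175, 183 and 156 in GFP. Its log2 change was 0.85 ± 0.28 (limma, adjusted p = 0.193, paired 0.000142), and like Stmn2 it was higher in Cre in 4 of 4 pairs. The paired model called 8 of the 16 higher (Ckmt1, Dgat2, Hey1, Trp53bp1, Pikfyve, Kansl1, Pafah2 and Paqr7) and 1 lower (Mrps27). Over all genes it called 22.2% higher and 21.7% lower, 43.9% in all. Ckmt1 had to differ, and nothing is read from these counts. Of the genes called in the paired model, Pikfyve was the most distant from its member, at 897 kb from Map2.

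Other genes of microtubule control came from 8 lists: further structural MAPs, the remaining stathmin and synuclein genes, LC3 family genes, end-binding proteins, severing enzymes, kinases, tubulin-modifying enzymes and spindle MAPs. Of their 101 genes, 97 had a row and 82 were tested. The unpaired limma model called 0 of the 82, and voom also 0. At an unadjusted p under 0.05 in limma, which 16.7% of all genes had, 3 were higher in Cre and 9 were lower. With the pairing, limma called 24 higher, 25 lower and 33 not, 59.8% of the list where 43.9% of all genes were called, and 40 of the 49 calls held in each of the 11 paired alternatives in which the gene was tested. The median log2 change was 0.02. All calls named in the next paragraphs are from the paired limma model, with adjusted p-values from it.

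Spindle MAPs, which build the mitotic spindle, were lower in Cre as a whole list: 10 of 10 fell, with a median log2 change of -0.61. Over all genes tested, the paired model called 21.7% lower. The unpaired model called 0 of the 10. Spag5 (astrin) fell by 0.85 (paired SE 0.07; limma, adjusted p = 2e-05, unpaired 0.29). Ckap2l fell by 0.80 (paired SE 0.09; limma, adjusted p = 6.7e-05, unpaired 0.295) and the spindle pole protein gene Numa1 by 0.25 (paired SE 0.04; limma, adjusted p = 0.000923, unpaired 0.332). Stmn1, the stathmin of dividing cells, was lower in the same libraries. Its change of -0.65 lay inside the wide range of the spindle genes (-0.85 to -0.23), whereas the axonal Stmn2 went the other way. Any link between Stmn1 and the spindle genes was not tested.

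LC3 family proteins were first found as light chain 3 of MAP1 and now stand for autophagosome membranes. Of 5 genes, 4 rose and Gabarapl2 was not called (0.24, adjusted p = 0.0608), with a median of 0.32. Over all genes tested, the paired model called 22.2% higher. Gabarap rose by 0.35 (paired SE 0.05; limma, adjusted p = 0.000233, unpaired 0.544) and Map1lc3a by 0.32 (paired SE 0.09; limma, adjusted p = 0.0151, unpaired 0.359). Map1lc3a lost its call without pair 2 or pair 4 (adjusted p up to 0.077). Their levels differed, with Gabarap at 5497 to 9960 scaled reads in Cre and 3868 to 8220 in GFP. Gabarapl2 was at 239 to 367 in Cre and 193 to 318 in GFP. Cre 1 and GFP 1 were the highest of their groups, as for Map1a. The exception was Map1lc3a, where Cre 2 (1663) was above Cre 1 (1556).

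Among further structural MAPs 6 rose, 2 fell and 6 were not called (57.1% called, against 43.9% of all genes). Map6d1, a relative of Map6, went from 27 to 50 scaled reads in GFP to 45 to 70 in Cre (log2 change 0.66 ± 0.25; limma, paired adjusted p = 0.00977, unpaired 0.246), opposite to Map6. Jpt1 fell by 0.35 (paired adjusted p = 0.000684) and Enkd1, which encodes a microtubule-binding protein of spindle and cilia, by 0.56 (limma, paired adjusted p = 0.000309). Map4, the muscle MAP, stood at 16202 to 18852 in Cre and at 14746 to 17143 in GFP, with a rise of 0.12 (limma, paired adjusted p = 0.0312) that was lost in 4 of 11 paired alternatives.

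Of the genes of microtubule ends 3 rose, 4 fell and 8 were not called, 46.7% called against 43.9% of all genes. Mapre2 fell by 0.48 (limma, paired adjusted p = 0.00105) and Mapre3 rose by 0.41 (0.00034), while Mapre1, the abundant EB1 gene, changed by -0.08 and was not called (0.133). Nav3 fell by 0.42 (limma, paired adjusted p = 0.00354) and the minus-end protein gene Camsap2 by 0.19 (0.00343).

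Severing enzymes cut microtubules along their length. Of 9 genes, 4 fell, 1 rose and 4 were not called (55.6% called, against 43.9% of all genes). Fign, the fidgetin gene, fell by 0.55 (limma, paired adjusted p = 0.00626) and its relative Fignl1, which acts in DNA repair, by 0.69 (0.000154). Fignl2 was the gene that rose, by 0.86 (0.00203).

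Kinases of tau, MAPs and stathmins gave 4 that rose, 1 that fell and 7 not called, 41.7% called against 43.9% of all genes. Mark4, which phosphorylates MAPs and releases them from microtubules, rose by 0.31 (limma, paired adjusted p = 0.00144). Gsk3b rose by 0.12 (0.0388) and Cdk5 fell by 0.19 (0.0175), calls that were lost in 6 and 1 of 11 paired alternatives. Tubulin-modifying enzymes gave 6 that rose, 4 that fell and 7 not called (58.8% called). Ttll5, a glutamylase gene, fell by 0.50 (limma, paired adjusted p = 0.000117), Ttll11 rose by 0.46 (0.00215) and Agtpbp1, which removes glutamates, fell by 0.28 (0.00462).

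**Figure D4:**
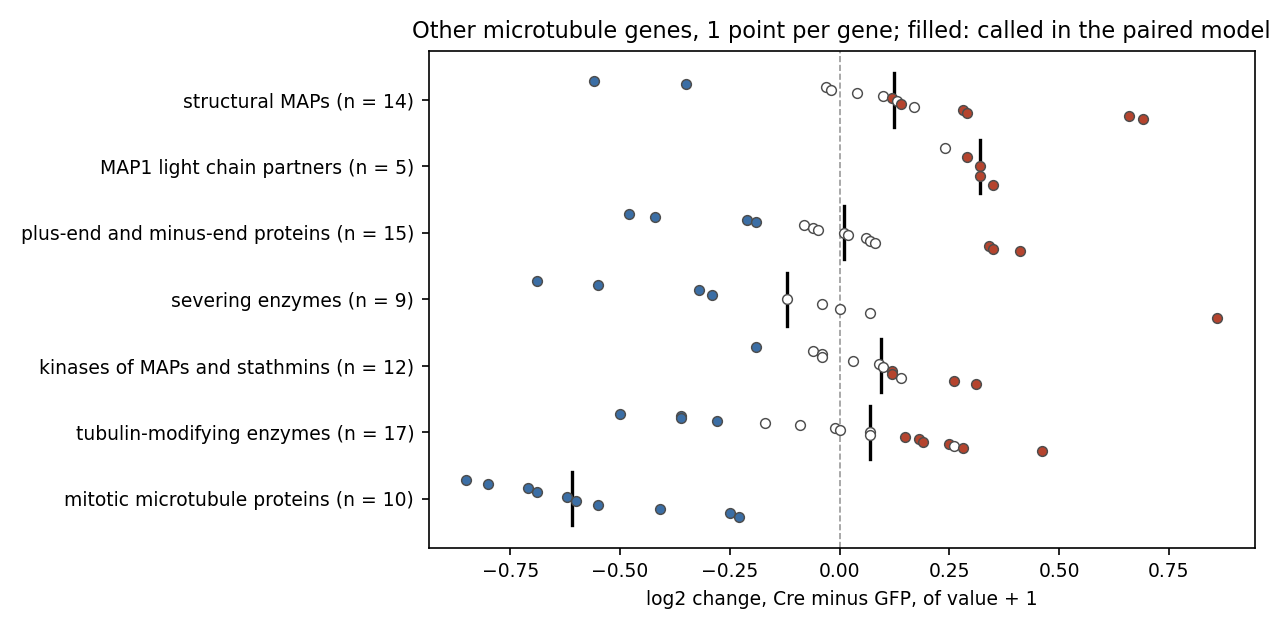
Log2 change of Cre against GFP for the 82 tested genes of 7 lists, 1 point per gene, with a black bar at each list's median. Filled points were called in the paired model (red higher, blue lower); all 10 spindle genes lie below 0 and all 5 LC3 family genes above it.

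Markers of the cell types that could carry neuronal transcripts were measured beside these results. Myoblast markers summed to 91077 to 107523 scaled reads in Cre and 88766 to 97376 in GFP, with all 6 of 6 present. The paired model called 2 higher, 2 lower and 2 not, where it called 43.9% of all genes. Myf5 changed by -0.57 (limma, paired adjusted p = 0.000124). Myod1 changed by 0.20 (0.0425) and Pax7 by -0.14 (0.0354), calls that each held in 6 of 11 paired alternatives. Of 9 neuron markers 7 had a row, and they summed to 2712 to 4100 in Cre and 1959 to 3766 in GFP. Most of that was Syn1, at 1787, 2375, 2566 and 1964 in Cre and 1603, 1813, 2314 and 1319 in GFP (change 0.32; limma, paired adjusted p = 0.00421), and Nefm (0.60; 0.0381, lost in 5 of 11 paired alternatives). Nefl changed by 0.89 and was not called (limma, paired adjusted p = 0.0633). Gap43 was at 53, 15, 26 and 73 in Cre and at 20, 13, 18 and 47 in GFP, higher in Cre in 4 of 4 pairs and too low to be tested. Syp, Snap25 and Elavl3 had means under 10 in both groups, and Rbfox3 and Elavl4 were not analysed here. Of 7 Schwann cell and glia markers 5 had a row and summed to 338 to 550 in Cre and 301 to 492 in GFP. S100b had means under 10, Ngfr rose by 1.13 (limma, paired adjusted p = 0.00014), and Mbp (-0.30) was not called. Of 5 fat cell markers Adipoq, Plin1, Cidec and Lep were not analysed here, and Fabp4 was at 1 to 8 in Cre and 0 to 2 in GFP. Endothelial markers summed to 276 to 408 in Cre and 141 to 182 in GFP, with Tek higher by 1.46 (limma, paired adjusted p = 3.3e-05), Pecam1 at 0.24 and not called, and Cdh5 with means under 10. Kdr was at 46, 19, 27 and 14 in Cre and at 14, 6, 2 and 4 in GFP, higher in Cre in 4 of 4 pairs and too low to be tested. The leukocyte marker Cd68 was at 82 to 396 in Cre and 28 to 243 in GFP (1.00; limma, paired adjusted p = 0.000369), while Ptprc, Adgre1 and Cd3e were not analysed here. Of 4 fibroblast markers 2 had a row and summed to 96 to 143 in Cre and 105 to 151 in GFP, nearly all of it Pdgfra, which had a change of 0.04 and was not called; Dcn had means under 10. The part of any such cells in the changes of Map1a, Stmn2 and Sncg was not tested.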

How the data were processed

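RNA-seq of 8 libraries was analysed from a single deposited table. The authors' values are a score, whole numbers per gene with gaps at regular steps, as scaling and rounding of read counts leave. The submitters' processing notes name STAR 2.5.3a, featureCounts 1.5.3, Subread and DESeq, with the builds mm10 and GRCm38. The order and settings of these steps, and the use of strand in counting, were not given in the sources used here. Libraries were stranded, per the labels' protocols. The scaling of each library, 0.741 to 1.20 scaled reads per read, was estimated from gaps in the low values. Groups and numbers came from the titles, and other columns were not used.

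Differences were fitted with limma 3.58.1 in R 4.3.3 on log2(value + 1), with the prior variance following intensity, without a block as the main model and with the number as a block as the paired model. Numbers were taken to pair libraries because deviations correlated at 0.82 to 0.908 between equal numbers, on the evidence of the values alone. Unequal numbers gave -0.597 to 0.477, and the highest, Cre 2 with GFP 3, shared transcripts of the Y chromosome. All paired calls depend on this pairing. P-values are two-sided and Benjamini-Hochberg adjusted over all 12910 genes, with a threshold of 0.05. They weigh the group difference against the spread between these libraries, in the paired model the spread left after the number. The filter removed 8066 genes. Alternatives were 2 rescalings, no filter or 5 CPM, pseudocounts of 0.1 and 10, voom, and leaving out libraries or pairs.

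Exon lengths came from GENCODE M21 (GRCm38), promoters from RefSeq, and tables and figures from Python 3.11.15, numpy 2.4.6, pandas 2.3.3, scipy 1.17.1 and matplotlib 3.10.9. From each list the genes past the unpaired threshold, or else up to 3 with the smallest p, are named; others named (such as Map4, Mapre1, Mapre3 and Fignl2) and the neighbouring genes were added after their values were seen or by position. A few list genes are not reported here by name. The members and lists were chosen with earlier results of these data known. Reads are not independent molecules, and the depth sets counting error only.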

Additional observations from a re-analysis of the deposited data

Results flagged for a closer look

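Among 84 groups of 4 libraries checked (8 members and the named genes of the lists, each in Cre and in GFP), 3 held a library far from the other 3 by Dixon's criterion on the log2 scale, at its 95% critical value; chance flags about 1 in 20 groups. Map1lc3a was at 845 scaled reads in GFP 4, against 1227 to 1298 in the other GFP libraries (gap over range 0.869). Camsap2 was at 2706 in Cre 2, against 2881 to 2917 in the other Cre libraries (0.835). Myf5 was at 1262 in Cre 4, against 298 to 347 in the other Cre libraries (0.895), while GFP 4 was also the highest of its group at 1816. No group of a member was among them.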

How the results depend on the processing

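Pairing moved the counts most. Over all genes, the unpaired model called 108 higher and 32 lower in Cre, and the replicate block 2861 and 2804; the listed microtubule genes went from 0 and 0 to 24 and 25, while the median log2 change of the 8 members remained 0.13. With the block, counts of all genes higher, all lower, listed higher and listed lower were 2607, 3157, 20 and 25 on the mean library total, 3269, 2447, 26 and 25 on a common upper quartile, 3123, 2538, 22 and 25 without a filter, 2353, 2626, 22 and 25 at 5 CPM, 2857, 2794, 24 and 25 with a pseudocount of 0.1, 2886, 2814, 24 and 25 with 10, and 2612, 3199, 21 and 25 with voom. They were 2648, 2365, 21 and 25 without pair 1, 2304, 2289, 17 and 25 without pair 2, 2482, 2379, 21 and 24 without pair 3, and 2238, 2100, 18 and 25 without pair 4.

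Without the block, the 5 CPM filter called 58 higher, voom and total rescaling each called 48 lower, and the list stayed at 0 and 0 in each alternative. Leaving out 1 library at a time gave 10 to 51 higher, 1 to 7 lower, and a members' median of -0.03 to 0.35, below 0 without Cre 3 or GFP 1. No result changed sign past the threshold. The median of all genes was -0.001, and -0.022 and 0.023 on the mean total and the upper quartile. The pairing rests on the values, and depth limits Map2, Mapt and Sncg in GFP most, at 137 scaled reads or fewer.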
